A study of Microcebus murinus with 8 samples.

Results

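The microRNAs described here are mmr-miR-136, mmr-miR-381, mmr-miR-409, mmr-miR-411a and mmr-miR-411b (the prefix stands for the species and is left out below). By their names they belong to microRNAs that in mouse and human come from the imprinted DLK1-DIO3 region. They were taken by name from tables of plasma microRNAs of the grey mouse lemur (Microcebus murinus, a small primate), and are 5 of the 108 microRNAs listed there. The animals, labelled WT, had been given feed whose fat was of vegetable origin (4 samples, numbered 5 to 8) or of dairy origin (4 samples, numbered 1 to 4). Age, sex, time on the diet and the number of animals are not given in the labels, and no baseline or untreated group was analysed here. The labels do not say that each sample is a separate animal, and p-values then measure the spread between samples, which may be technical.

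MicroRNAs are short RNAs that hold back the messenger RNAs they pair with, and some are released by cells into the blood. In imprinted regions only the copy from one parent is active. In the DLK1-DIO3 region of mouse and human the protein genes DLK1, RTL1 and DIO3 are expressed from the paternal chromosome, while the microRNAs are cut from long non-coding transcripts of the maternal chromosome, so that many of them share their transcription. They are abundant in the embryo, the placenta and the brain and scarce in most adult tissues. In RefSeq's annotation of the mouse lemur assembly M.murinus_Inina_mat1.0, RTL1 lies between DLK1 and DIO3 on the same chromosome. The positions and sequences of the lemur microRNAs were not used here. The names do not give the arm of the hairpin, and miR-411a and miR-411b are by their names close relatives, so that reads may have been split between them.

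The values are reads per 1000000 reads of the 108 listed microRNAs (RPM). Within each sample all values were whole multiples of a single step, taken as the value of 1 read, which ran from 0.25 RPM in vegetable sample 7 to 0.942 RPM in vegetable sample 8. The read totals this implies were 1061434 to 4004131 in the vegetable fat samples and 1408536 to 3437717 in the dairy fat samples. These totals count only the listed microRNAs.

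All 5 microRNAs were scarce and were listed above 0 in every sample. Together they took 94.6, 427, 21.0 and 676 RPM in vegetable samples 5 to 8, against 290, 139, 51.5 and 352 RPM in dairy samples 1 to 4. Those sums rest on 311, 793, 84 and 718 implied reads in the vegetable fat samples, against 408, 430, 177 and 1130 in the dairy fat samples. Vegetable sample 7 was the lowest and vegetable sample 8 the highest, and the range of the dairy fat samples lay inside that of the vegetable fat samples.

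MiR-409 (mmr-miR-409) was the most abundant of the 5 by mean level. It stood at 43.5, 142, 8.49 and 268 RPM in vegetable samples 5 to 8, against 100.1, 55.4, 21.5 and 122 RPM in dairy samples 1 to 4. Between 34 and 393 reads lay behind each value, and miR-409 placed 62nd to 88th among the 108 by level. MiR-411b (mmr-miR-411b) stood at 22.2, 166, 5.24 and 148 RPM in vegetable samples 5 to 8, against 88.7, 36.1, 14.5 and 89.7 RPM in dairy samples 1 to 4. It was the only one of the 5 whose highest value came from vegetable sample 6, and the 95% counting intervals of vegetable samples 6 and 8 (148 to 186 and 126 to 173 RPM) overlapped.

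MiR-381 (mmr-miR-381), one of the microRNAs of the region needed for the activity-dependent outgrowth of dendrites in cultured rat neurons, stood at 19.2, 84.6, 3.50 and 178 RPM in vegetable samples 5 to 8, against 65.3, 29.3, 7.85 and 76.6 RPM in dairy samples 1 to 4. Its samples fell in exactly the order of those of miR-409. MiR-411a (mmr-miR-411a) stood at 8.22, 29.6, 3.50 and 59.4 RPM in vegetable samples 5 to 8, against 29.1, 14.2, 5.53 and 48.9 RPM in dairy samples 1 to 4. The lowest value of both was the same 14 reads in vegetable sample 7, where they could not be told apart.

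MiR-136 (mmr-miR-136), which in mouse and human is encoded opposite RTL1 and pairs fully with its transcript, was the scarcest, at 1.52, 4.85, 0.25 and 23.6 RPM in vegetable samples 5 to 8, against 6.39, 3.54, 2.04 and 14.3 RPM in dairy samples 1 to 4. Only 1 read was listed in vegetable sample 7 (95% Poisson interval 0.0063 to 1.39 RPM), below the floor of 3 reads, which is 0.749 RPM there. In the other 7 samples 5 to 46 reads were listed.

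**Figure D1:**
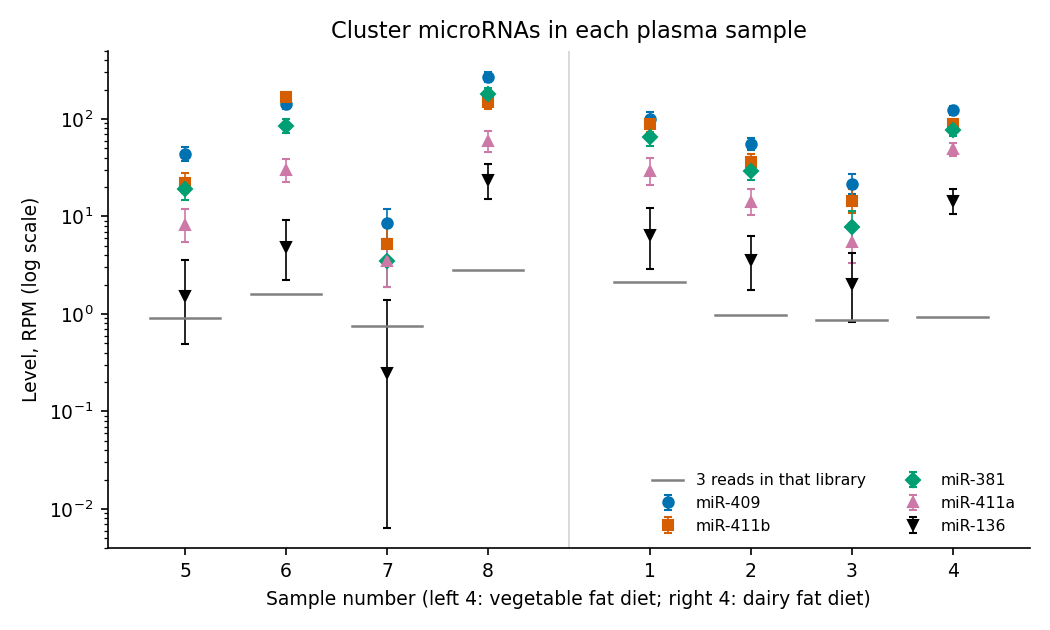
Level in RPM (log axis) of the 5 cluster microRNAs in each plasma sample, vegetable fat samples 5 to 8 on the left and dairy fat samples 1 to 4 on the right. Points are single samples, bars are 95% Poisson intervals of the implied reads (counting error only), and each grey line is the value of 3 reads in that library. All 5 were lowest in vegetable sample 7, where miR-136 lies under the line.

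The order of the 5 by level was kept in most samples. MiR-409 was above miR-411b in 7 of 8 samples, by 0.49 ± 0.37 on the log2(RPM + 1) scale (mean ± SD, n = 8), and miR-411b above miR-381 in 7 of 8, by 0.39 ± 0.38. Both steps were of about the size of their spread between samples. MiR-381 exceeded miR-411a in 7 of 8 samples and equalled it in 1, by 0.92 ± 0.53, and miR-411a exceeded miR-136 in 8 of 8 samples, by 1.75 ± 0.40. RPM values depend on how well each microRNA is captured in the library, so this order is one of reads.

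The levels moved between samples far beyond counting error. MiR-409 was 31.5-fold higher in vegetable sample 8 than in vegetable sample 7 (95% counting interval 22.0 to 46.4), and miR-381 50.9-fold (29.6 to 94.9). MiR-411a differed 17.0-fold between the same samples (9.41 to 32.8). For miR-136 the ratio of 94.3 rests on 25 reads against 1 and has an interval from 15.4 to 3872. Among the dairy fat samples the highest value was 5.69 to 9.76 times the lowest for the 5. The coefficient of variation of miR-409 over the 8 samples was 88.7%, where counting alone at its mean read number gives 7.29%, and that of miR-136 was 113%, against 26.6% from counting.

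Among the 104 microRNAs tested (1 RPM or more in at least 4 samples, which all 5 passed), the cluster held places 1, 2, 3, 6 and 7 by the standard deviation within the diets. On the log2(RPM + 1) scale this was 1.95 for miR-381, 1.83 for miR-411b, 1.69 for miR-409, 1.49 for miR-411a and 1.49 for miR-136. The median over all 104 was 0.499. Of 23 other microRNAs with mean levels between those of miR-136 and miR-409, 7.06 and 95.2 RPM, 1 had a larger standard deviation than the least variable of the 5, and the median of these 23 was 0.759. The 2 other microRNAs among the first 7 were miR-214 (1.55) and miR-145 (1.54), which are known from mesenchymal and smooth muscle cells. These places are a description, chosen after the values were seen. The first place stayed with the cluster whichever single sample was left out, while the lowest place among the 5 became 16 without vegetable sample 8, 15 without vegetable samples 7 and 8 together, and 19 with a pseudocount of 5.

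**Figure D2:**
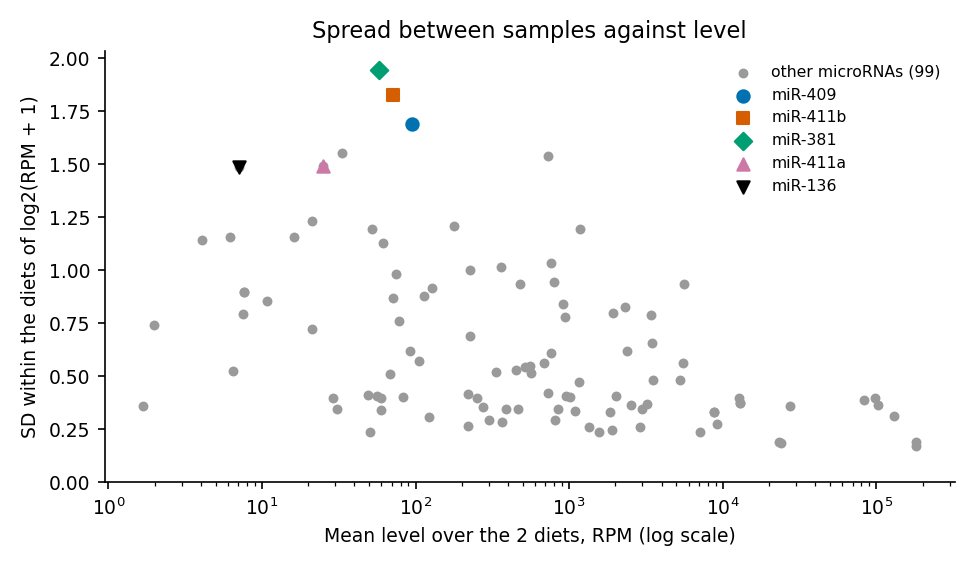
Standard deviation within the diets of log2(RPM + 1) against the mean level in RPM (log axis) for the 104 tested microRNAs, each point a microRNA and the cluster in colour. The 5 lie at 1.49 to 1.95, at or near the top of the plot, at levels where most other microRNAs lie lower.

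The 5 microRNAs varied together from sample to sample. Pearson's r of log2(RPM + 1) over the 8 samples was computed for each of the 10 pairs, with an exact permutation p over all 40320 orders of the samples, adjusted by Benjamini-Hochberg over all 5356 pairs of tested microRNAs. The median r of the 10 pairs was 0.961, where the median over all 5356 was 0.183 and their quartiles were −0.364 and 0.613. Close co-variation was not confined to the cluster, since miR-199, outside it, had r of 0.880 to 0.976 with the 5. At an adjusted exact permutation p under 0.05, 9 of the 10 pairs passed with positive r, and of all pairs 2.5% did (2.86% with r of either sign). At an unadjusted p under 0.05 it was 10 of 10 pairs, and 18.5% of all pairs.

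MiR-381 and miR-409 had the highest r, 0.996 (Spearman's rho 1.0; exact permutation p = 2.48e-05, the smallest that 40320 orders can give; adjusted p = 0.0234), and 4 of all 5356 pairs, this one included, reached that value. The r of miR-411a with miR-411b was 0.951 (rho 0.929; exact permutation p = 0.000521, adjusted p = 0.0367). MiR-136 with miR-411a gave 0.958 (rho 0.952; exact permutation p = 0.000149, adjusted p = 0.0285). The pair that missed the threshold was miR-136 with miR-411b, at 0.868 (rho 0.833; exact permutation p = 0.00508, adjusted p = 0.074), and 5.84% of all pairs had an r at least as high. Without vegetable sample 6, where miR-411b had its highest value, the lowest r of the 10 pairs was 0.955. It was 0.781 without vegetable sample 7, and 0.861 to 0.874 with any other sample left out.

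**Figure D3:**
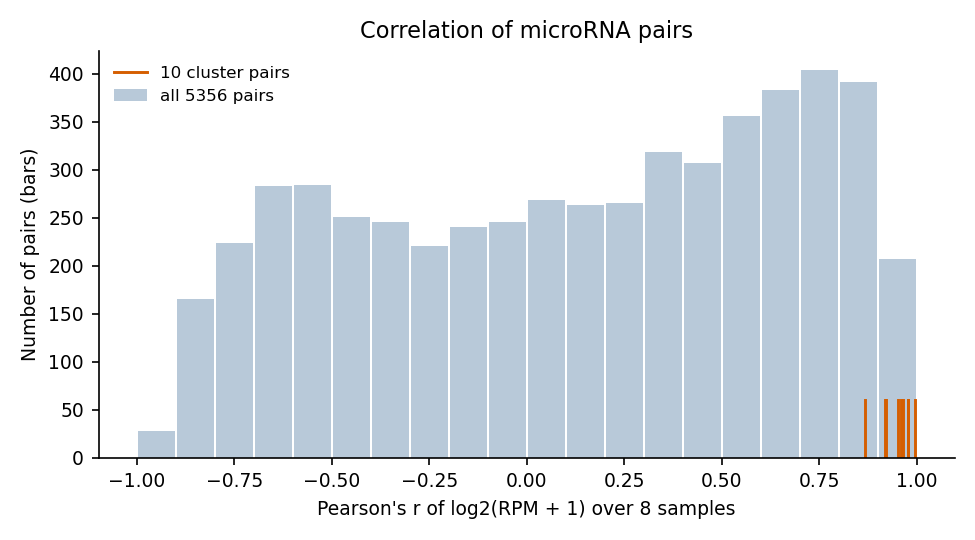
Pearson's r of log2(RPM + 1) over the 8 samples for all 5356 pairs of tested microRNAs (bars, number of pairs in steps of 0.1) and for the 10 pairs of cluster microRNAs (orange lines, whose height has no meaning). The 10 lie between 0.868 and 0.996, while all pairs spread over both signs with a median of 0.183.

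With diet means taken out, so that only samples of the same diet were compared, r for the 10 pairs was 0.876 to 0.996. All 10 had an unadjusted exact permutation p under 0.05 over the 576 orders within the diets, where 15.5% of all pairs did, and none passed after adjustment, nor did any of the 5356. By Spearman's rho 5 of the 10 passed after adjustment, where 0.84% of all pairs did. Without the 2 samples farthest from the median of the more abundant microRNA, r ran from 0.737 to 0.997 over 6 samples. In that setting 8 of the 10 had an unadjusted exact permutation p under 0.05, as did 416 of all 5356 pairs. Leaving out any 1 of the 8 samples kept the median r between 0.946 and 0.977. All 10 pairs stayed under an unadjusted exact permutation p of 0.05, where 649 to 1010 of all 5356 pairs did. After adjustment 0 or 1 of the 10 then passed, and 0 to 23 of all pairs, over the 5040 orders of 7 samples.

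The ratios within the cluster varied less than the levels. Taken of RPM with no pseudocount, which was chosen after the data were seen and which leaves the scaling of a sample out of the ratio, the log2 ratio of miR-381 to miR-409 had a standard deviation of 0.33 over the 8 samples. Counting alone gives about 0.25, while the log2 RPM of the 2 microRNAs had standard deviations of 1.91 and 1.61. Over the 10 ratios the standard deviation was 0.33 to 0.88 with a median of 0.55, and over all 5356 ratios, the 104 tested microRNAs being above 0 in every sample, the median was 0.79. The 4 ratios with miR-136 had the 4 highest values, 0.73 to 0.88, where counting gives 0.68 to 0.72. Much of that counting value comes from the 1 read of miR-136 in vegetable sample 7, where it is only approximate. With the pseudocount of 1 the medians were 0.48 for the cluster and 0.75 for all, and the standard deviation for miR-136 over miR-411a was 0.40, below its counting error of 0.72.

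On the log2(RPM + 1) scale none of the 10 ratios had an unadjusted exact permutation p under 0.05 between the diets. The test runs over the 70 assignments of the samples, and its smallest p is 0.0286. An adjusted p under 0.05 would need most of all 5356 ratios at that smallest p. The adjusted values therefore could hardly pass and decide nothing. The differences, vegetable fat minus dairy fat, ran from −0.46 for miR-136 over miR-409 (exact permutation p = 0.343, adjusted p = 1) to 0.25 for miR-409 over miR-411a (exact permutation p = 0.400, adjusted p = 1). Of all ratios 0.747% had an unadjusted exact p under 0.05, and 0% an adjusted one. With no pseudocount the difference for miR-136 over miR-409 was −0.97 (exact permutation p = 0.0857, adjusted p = 1), with log2 means of −4.58 in the vegetable fat samples and −3.61 in the dairy fat samples. Again none of the 10 had an unadjusted exact permutation p under 0.05.

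The levels also went with the read total of the library. The 5 had r of −0.716 to −0.805 with the log2 read total (exact permutation p from 0.016 to 0.0502, adjusted over the 104 tested from 0.0792 to 0.134), so that none passed after adjustment, where 2.88% of all did. At an unadjusted exact p under 0.05 and with negative r it was 4 of the 5, all but miR-136, and 35.6% of the 104. Over all 104 the median r was −0.532, with quartiles of −0.779 and 0.124, and 22.1% had an r at or below −0.805. Many microRNAs outside the cluster thus went with the read total as closely. Spearman's rho was −0.833 to −0.881 for the 5, and after adjustment 2 of them, miR-381 and miR-409, passed (exact permutation, adjusted p = 0.0471). The share of all 104 that passed by rho is not given here. Each doubling of the read total went with a change of −1.43 (miR-136) to −2.07 (miR-381) in log2(RPM + 1). Vegetable sample 7, the deepest library, held 84 reads of the cluster and vegetable sample 8, the shallowest, 718.

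Libraries of like depth still differed. Dairy samples 4 and 2 and vegetable sample 5 had 3210200, 3103305 and 3286351 reads, and the cluster sum in dairy sample 4 was 2.54 times that in dairy sample 2 and 3.72 times that in vegetable sample 5. Without dairy sample 4, 4 of the 5 passed the test against read total (exact permutation, adjusted p from 0.0103 to 0.033). The share of all tested microRNAs that passed in that setting is not given here, so this count does not set the cluster apart. Without the 2 libraries farthest from the median read total r was −0.451 for miR-136 and −0.621 to −0.844 for the others. With the read total regressed out of every microRNA, r of the 10 cluster pairs was 0.709 to 0.990 with a median of 0.916, and the median over all pairs was 0.0068. The part of the read total in the levels was not tested further.

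**Figure D4:**
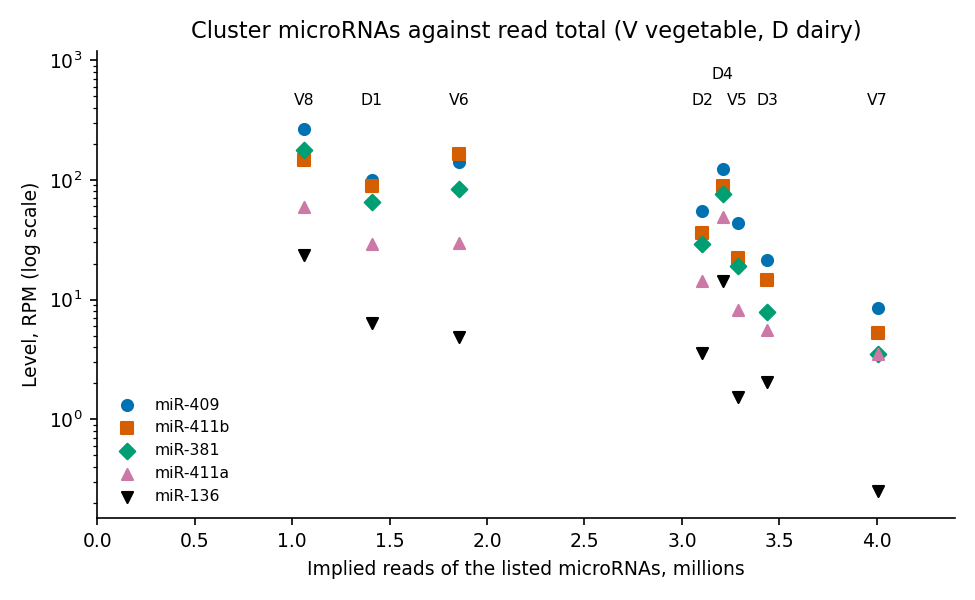
Level in RPM (log axis) of the 5 cluster microRNAs against the implied reads of the library (axis in units of 1000000 reads), each column of points a sample (V vegetable fat, D dairy fat, with the sample number). Levels are lowest in V7 and, for all but miR-411b, highest in V8, and D4 lies above D2 and V5, which have about as many reads.

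The microRNAs outside the cluster whose levels followed it most closely are given as a description, ranked by r over the same 8 samples and chosen for it. For the mean of the 5 they were miR-199 (r = 0.957), miR-132 (0.921), miR-145 (0.914), miR-126 (0.901) and miR-10a (0.894). MiR-199 is known from mesenchymal cells, miR-145 from smooth muscle, miR-126 from endothelium and miR-132 from neurons. MiR-199 was the closest to miR-381 (0.976), miR-409 (0.963) and miR-411a (0.944), miR-145 to miR-411b (0.944) and miR-195 to miR-136 (0.918). The second closest were miR-145 to miR-381 (0.944), miR-132 to miR-409 (0.938) and miR-411b (0.939), miR-126 to miR-411a (0.912) and miR-125a to miR-136 (0.911). MiR-199 stood at 746, 1376, 317 and 2839 RPM in vegetable samples 5 to 8, against 1696, 834, 329 and 1273 RPM in dairy samples 1 to 4. As for the cluster, vegetable sample 7 was lowest and vegetable sample 8 highest. The r of miR-199 with the 5 ran from 0.880 to 0.976, beside 0.868 to 0.996 for the 10 cluster pairs. It was 0.812 to 0.939 for miR-132, 0.774 to 0.944 for miR-145 and 0.821 to 0.912 for miR-126. Co-variation this close was thus not particular to the cluster.

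Markers of cells that can release RNA into plasma are given beside this, with r over the same 8 samples, which share their scaling and read totals. Of 7 microRNAs of smooth muscle and mesenchyme 4 were listed, with a summed level of 3463 to 7673 RPM in the vegetable fat samples and 3485 to 4696 RPM in the dairy fat samples, and miR-199, miR-145 and miR-214 had r of 0.957, 0.914 and 0.881 with the cluster mean while miR-140 had −0.195. The sum of these 4 had an r of 0.812. Of 12 neuronal microRNAs 6 were listed, summing to 3149 to 4122 RPM in the vegetable fat samples and 2801 to 4702 RPM in the dairy fat samples, most of it miR-128, which had an r of −0.699 while the sum had −0.742. The other 4 of the 5 tested had positive r, at 0.921 for miR-132, 0.497 for miR-138 and 0.711 for miR-218a and miR-218b, whose values were identical. Of 9 platelet microRNAs 7 were listed, at 154177 to 215775 RPM in the vegetable fat samples and 166742 to 216781 RPM in the dairy fat samples, most of it miR-191 (r = 0.0927), and the sum had an r of 0.247. Of the other 6, miR-126, which endothelium shares, had 0.901, miR-24 had 0.840, miR-221 had 0.801, miR-222 had 0.764, miR-21 had 0.429 and miR-197 had 0.298. Of 9 red cell microRNAs 4 were listed, at 67361 to 117946 RPM in the vegetable fat samples and 61365 to 99205 RPM in the dairy fat samples, most of it miR-486 (r = 0.528), and the sum had an r of 0.453. The other 3 had −0.812 for miR-15a, −0.0094 for miR-92a and −0.0521 for miR-182. None of the listed markers that were tested passed the threshold between the diets. None of the listed markers was at 0 in any sample, and the liver and skeletal muscle lists had 0 of 3 and 0 of 4 names listed. The part of these cells in the cluster's variation was not tested. In plasma, release from more cells and release of more RNA per cell cannot be told apart.

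No difference between the diets was found for any of the 5. By limma on log2(RPM + 1), with Benjamini-Hochberg adjustment over the 104 tested, 0 of the 5 passed at 0.05, and 0% of all 104 did. At an unadjusted p under 0.05 it was also 0 of the 5 and 0% of the 104, and by the exact permutation test the unadjusted p of the 5 ran from 0.686 to 1. MiR-381 averaged 71.3 ± 79.4 RPM on vegetable fat and 44.8 ± 31.8 RPM on dairy fat (SD, n = 4 each). Its log2 estimate was 0.0021 ± 1.12 (SE; limma adjusted p = 0.999), with a 95% interval of the fold from 0.179 to 5.61. MiR-409 averaged 115 ± 116 RPM on vegetable fat and 74.9 ± 45.2 RPM on dairy fat, with a fold of 1.01 (0.226 to 4.49) on the same scale.

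MiR-411b averaged 85.3 ± 83.3 RPM on vegetable fat and 57.3 ± 37.9 RPM on dairy fat (SD, n = 4 each), with a fold of 0.936 (0.186 to 4.72). MiR-411a averaged 25.2 ± 25.5 RPM on vegetable fat and 24.4 ± 19.0 RPM on dairy fat, with a fold of 0.847 (0.213 to 3.37). MiR-136 averaged 7.54 ± 10.8 RPM on vegetable fat and 6.57 ± 5.48 RPM on dairy fat, with a fold of 0.734 (0.183 to 2.95). The means of RPM were higher on vegetable fat for all 5 while the estimates on the log scale were at or below 0.01. The 5 estimates had a median of −0.10, beside 0.07 over all 104, and all 5 intervals take in that median. All 5 estimates lay below the median of all under each of 4 scalings. A scaling moves all microRNAs of a sample nearly alike, and the 5 vary together, so these are not separate observations.

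The diets overlapped for each of the 5, as they did for all 108 listed microRNAs, of which 0% separated the groups. For miR-381, miR-409 and miR-411b, vegetable samples 6 and 8 lay above every dairy fat sample and vegetable sample 7 below every one. For miR-411a it was vegetable sample 8 above and vegetable sample 7 below, and for miR-136 vegetable sample 8 above and vegetable samples 5 and 7 below. The 95% interval reached 1.99 to 2.49 to either side of the estimate on the log2 scale for the 5, against a median of 0.84 over all 104, and all 5 intervals take in folds from 0.226 to 2.95. With the read total as a covariate the estimates for miR-381 and miR-409 were −0.48 and −0.40, and no alternative gave an adjusted p under 0.93.

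**Figure D5:**
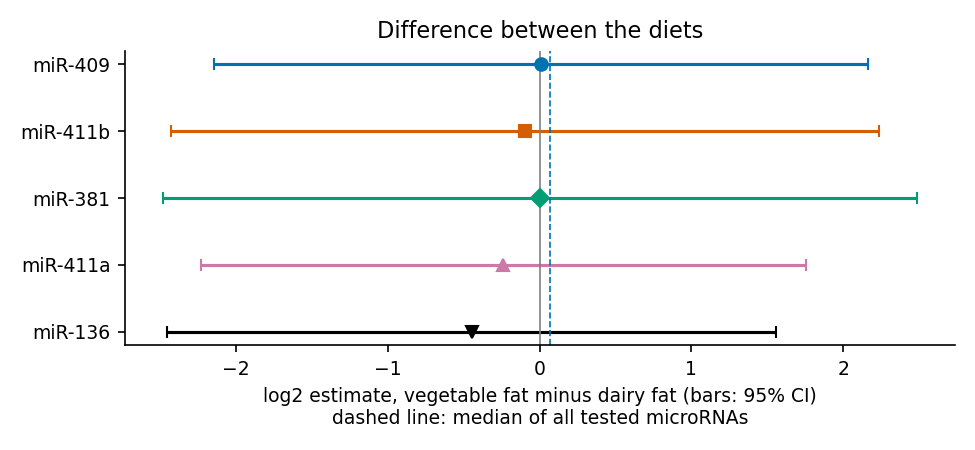
Difference between the diets on the log2(RPM + 1) scale, vegetable fat minus dairy fat, by limma, with 95% confidence intervals (n = 4 each). All 5 intervals cover 0 and the median of the 104 tested microRNAs (dashed, 0.07), and they reach at least 1.99 to either side.

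Of 52 names taken for the DLK1-DIO3 region in human, the 5 described here were listed, matched by name only. Of 5 names known from the region in sheep, 1 was listed, miR-3959, with 4, 2, 2 and 2 reads in vegetable samples 5 to 8 against 3, 4, 9 and 9 reads in dairy samples 1 to 4. In 4 of the 8 samples it lay at or under the floor of 3 reads. It stood at 1.17 ± 0.57 RPM on vegetable fat and 2.21 ± 0.68 RPM on dairy fat (SD, n = 4 each; log2 estimate −0.58, 95% interval −1.59 to 0.43, limma adjusted p = 0.999). Its r with the 5 was 0.422 to 0.634, below that of any pair among them. Its coefficient of variation was 47.5%, where counting alone at its mean read number gives 47.8%. Counting error of that size lowers r, so weaker co-variation cannot be read from it.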

How the data were processed

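The labels' protocols name the miRNeasy Micro kit for plasma RNA and the QIAseq miRNA kit for the libraries. Trimming was with cutadapt 3.4, per the submitters' processing notes. The sources used here do not name the aligner, the reference set, the counting or the use of molecular identifiers. The authors deposited RPM per microRNA, summing to 1000000 over the 108 listed in each sample, so that a gain in one lowers the rest. Samples carry the numbers of their titles, which for vegetable fat differ from those in the file headers while the diet is the same. Read totals were implied from the step of the values (all within 0.01 of whole reads), and no count test was run. Intervals (95%) and the floor of 3 reads cover counting error only.

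Groups came from the titles. The main test, at 0.05, was limma 3.58.1 in R 4.3.3 (trend and robust options) of log2(RPM + 1), vegetable fat minus dairy fat, over the 104 microRNAs that reached 1 RPM in 4 or more samples. This scale understates changes of scarce microRNAs. Exact permutation tests of correlations and ratios (numpy 2.4.6, scipy 1.17.1) were adjusted over all tested microRNAs or their pairs. The fit and the permutation test of correlations were tried on simulated data, the permutation test of ratios was not. Values simulated for the fit had far less spread between samples than the cluster. That trial therefore does not show what the fit can find for the cluster. Counts of no 2 samples agreed within noise (chi-square per degree of freedom at least 304), and 3 pairs of other microRNAs had identical values. The cluster microRNAs, the marker lists and the rule for naming others (all 5, listed names of the region, the closest by r) were chosen with earlier results of these data known. Alternatives were other pseudocounts, filters, scalings, limma options, read total as a covariate, Spearman's rho and samples left out. The labels give no batch.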

Additional observations from a re-analysis of the deposited data

Results flagged for a closer look

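Of 16 groups of 4 values examined for a sample far from the rest (the 5 cluster microRNAs, their sum, miR-3959 and the read total, in each diet), 1 stood out, where chance gives about 1 in 20 groups. It was the implied read total of dairy sample 1, 1408536, against 3103305 to 3437717 in the other dairy fat samples. The cluster sum in that library was 290 RPM, inside the range of the other dairy fat samples.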

How the results depend on the processing

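No paired analysis was run, because the labels do not link any vegetable sample to a dairy sample. The estimates of the 5 between the diets were refitted under 17 alternatives. Of these 85 estimates 58 kept their sign and 0 had an adjusted p under 0.05 by limma (0.93 to 0.999), and the count over all 104 stayed at 0. Estimates that changed sign were, for miR-381, −0.48 with read total as a covariate, −0.0080 with median-of-ratios factors, −0.021 with a pseudocount of 0.5, −0.088 with the trimmed mean and −0.25 with upper quartile factors. For miR-409 they were −0.40 with read total as a covariate, −0.0021 with a pseudocount of 0.5, −0.075 with the trimmed mean and −0.25 with upper quartile factors. For miR-411b they were 0.0079 with a pseudocount of 5 and 0.42 without the deepest and the shallowest library. Upper quartile factors gave a median over all of −0.19, against 0.07 as reported. With 1 sample left out, estimates ran from −1.25 to 0.18 for miR-136, −0.79 to 0.98 for miR-381, −0.68 to 0.92 for miR-409, −0.86 to 0.39 for miR-411a and −0.74 to 0.84 for miR-411b.

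The number of cluster pairs past the adjusted threshold was 9, and 5 by Spearman's rho. It was 0 with values centred on each diet mean and 0 without the 2 samples farthest from the median. Without the deepest and the shallowest library it was 0, and with 1 sample left out 0 to 1. Wherever it was 0, 0 of all 5356 pairs passed too. Fewer orders exist there (576 within the diets, 720 for 6 samples, 5040 for 7). Over 5040 orders 19 of all pairs did pass without dairy sample 2, and 23 without dairy sample 3. Where no pair at all passed, the count cannot show whether co-variation of the cluster was lost. The median r of the cluster pairs was 0.916 with read total regressed out and 0.942 without the deepest and the shallowest library. It was 0.946 to 0.977 with 1 sample left out. The number past the threshold against read total was 0, and 2 by Spearman's rho and 0 to 4 with 1 sample left out. The share of all tested microRNAs that passed in these alternatives is not given here. The lowest place of the 5 by spread was 7, and 19 with a pseudocount of 5, 15 without the deepest and the shallowest library, and 5 to 16 with 1 sample left out. The cause of these shifts was not tested. The alternatives without the deepest and the shallowest library, with read total regressed out, with no pseudocount in the ratios, and all those for the place by spread were chosen after seeing the data. Depth limits miR-136 most, with 1 to 46 reads a sample.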

Other observations

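The make-up of the cluster is given as shares of its reads with 95% Wilson intervals (counting error only). MiR-409 took 46.0% (40.5 to 51.5), 33.3% (30.1 to 36.6), 40.5% (30.6 to 51.2) and 39.6% (36.0 to 43.2) in vegetable samples 5 to 8, and 34.6% to 41.8% in the dairy fat samples. MiR-411b took 38.8% (35.5 to 42.3) in vegetable sample 6, an interval above those of the other 7 samples, and 21.9% to 25% in the other vegetable fat samples and 25.5% to 30.6% in the dairy fat samples. MiR-136 took 1.13% to 3.48% in the vegetable fat samples and 2.21% to 4.07% in the dairy fat samples. With 84 reads in vegetable sample 7, shares of that sample are wide.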
